A study of Mus musculus with 23 samples.

Results

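The comparison described here sets endometrium that received a hydrogel carrying human endometrial organoids against endometrium that received saline, in a mouse model of endometrial damage. Its members are the 6 HG+ORG horns and the 5 PBS horns, chosen by their library titles, which makes 11 of the 23 uterine horns sequenced in the study. All 11 horns came from female C57BL/6 mice, which are immunocompetent, and all had been damaged with ethanol. The HG+ORG horns were injected 4 days later with an endometrium-derived hydrogel holding organoids, which are cultured epithelial structures of human origin, and the PBS horns are those of the saline condition of the same design. Tissue was taken 2 weeks after injection, when the endometrium was pressed out of each horn by hand. The other horns were 6 HG horns, injected with the hydrogel alone, and 6 SHAM horns, for which the sources used here give no treatment. Age and stage of the estrous cycle are not given either. A library is 1 horn. The design counts 21 mice for tissue analyses, fewer than the horns sequenced, so some horns share a mouse, and the labels do not say which. The p-values therefore measure the spread between horns and are too small where horns of 1 mouse fall in the same group. Reads were counted on mouse genes, and a read of a human organoid cell that aligned to a mouse gene cannot be told apart from a mouse read.

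The endometrium is made of a luminal and glandular epithelium resting on a stroma of fibroblast-like cells with blood vessels and resident immune cells, and it is enclosed by the smooth muscle of the myometrium. After injury, neutrophils and then monocyte-derived macrophages enter the tissue and release chemokines and cytokines. Macrophages clear debris, can become laden with lipid or fuse around foreign material, and influence how much collagen the stroma lays down. Many chemokine genes are targets of the transcription factor NF-kB, and many genes of glucose uptake and glycolysis are targets of the hypoxia-inducible factors.

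The promoters of 3 chemokine genes and 2 hypoxia-responsive genes are printed as examples from 2 lists described below, and each printed sequence holds a match marked in capitals. They are 150 bases before the transcription start, 5′ to 3′ on the gene's strand, from RefSeq on build GRCm38.p6, whereas the counts were made on GRCm39. The table holds a second promoter for Ldha, which has no match to the letters searched and is not printed. Capitals in the first 3 mark overlapping matches to the NF-kB consensus on either strand, and capitals in the last 2 mark the letters ACGTG, the core of the hypoxia response element, on either strand.
Cxcl1, chr5:90891095-90891244, plus strand: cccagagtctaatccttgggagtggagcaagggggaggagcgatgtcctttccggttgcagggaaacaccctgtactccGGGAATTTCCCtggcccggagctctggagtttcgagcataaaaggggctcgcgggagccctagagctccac
Cxcl2, chr5:90903749-90903898, plus strand: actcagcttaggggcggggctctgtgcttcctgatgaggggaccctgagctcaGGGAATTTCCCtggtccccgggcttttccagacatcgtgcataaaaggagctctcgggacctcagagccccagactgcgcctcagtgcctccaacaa
Cxcl3, chr5:90785951-90786100, plus strand: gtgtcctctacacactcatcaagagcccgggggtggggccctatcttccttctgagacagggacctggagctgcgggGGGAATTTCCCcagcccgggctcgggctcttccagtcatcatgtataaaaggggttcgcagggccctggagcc
Ldha, chr7:46845654-46845803, plus strand: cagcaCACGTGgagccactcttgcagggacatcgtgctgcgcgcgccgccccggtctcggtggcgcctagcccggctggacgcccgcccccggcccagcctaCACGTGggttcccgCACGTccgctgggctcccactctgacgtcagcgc
Ankrd37, chr8:45999851-46000000, minus strand: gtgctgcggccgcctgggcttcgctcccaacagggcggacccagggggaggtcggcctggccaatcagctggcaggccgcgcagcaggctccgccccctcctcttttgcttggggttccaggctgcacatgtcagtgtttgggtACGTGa
The NF-kB match began 71 bases before the start in Cxcl1, 97 in Cxcl2 and 73 in Cxcl3. Of 32851 mouse promoters of the same length, 4.60% held a match to the consensus and 11.2% held ACGTG. Of 23 chemokine genes, 16 matched a promoter and 6 of these held the consensus, which is 37.5%. The 6 include Ccl20, which is not among the genes counted, and do not include Ccl2, Ccl3 or Ccl4. Of 18 genes of hypoxia and glycolysis, 17 matched at least 1 promoter and 10 of their 25 promoters held ACGTG, which is 40.0%. A match describes the letters in this window and was not tested as a binding site.

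Total counts were 11378821 to 14206928 in HG+ORG horns and 11426751 to 14902952 in PBS horns (exact two-sided permutation p = 0.288), and mitochondrially encoded genes took 1.47 to 11.1% and 1.78 to 9.20% of counts. HG+ORG replicate 18 stood apart. Its median Spearman correlation with the other HG+ORG horns was 0.784, against 0.869 to 0.959 for every other HG+ORG or PBS horn with its own group. It was the lowest of the 11 horns for 17 of 17 epithelial genes and the highest for the 2 pancreatic acinar genes tested and for 14 of 16 macrophage genes. How far this library holds endometrium, as labelled, is therefore uncertain, and every fold over all horns carries that doubt. Folds against PBS are given with and without it. Levels are log2 CPM, on which each library's counts are divided by its total after scaling for library composition, with a floor of -2.66 for a count of 0. The scaling factor was 0.702 in HG+ORG replicate 18 and 0.799 in replicate 21, and 0.944 to 1.13 in the other HG+ORG and PBS horns. For each gene the level in replicate 18 is followed by the lowest, median and highest of the other 5 HG+ORG horns, and then by the levels in PBS replicates 7, 8, 9, 10 and 11. Such levels are compared between horns, not between genes.

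No gene passed edgeR's quasi-likelihood test between HG+ORG and PBS horns at a Benjamini-Hochberg adjusted p of 0.05, which is 0% of the 17708 features tested, and none passed without replicate 18. The smallest adjusted p was 0.709 with all horns and 1.00 without replicate 18. At an unadjusted p under 0.05 lay 6.09% of features with all horns, 4.86% higher in HG+ORG and 1.23% lower, which are 861 and 218 features. Without replicate 18 it was 2.77%, and the balance turned, with 1.01% higher and 1.75% lower, 179 and 310 features. limma-voom called 0 features with all horns and DESeq2 called 1, 2610016A17Rik, which had 11 counts in PBS replicate 7 and 0 in the other 10 horns. The median fitted log2 fold of all features was 0.05, and 0.00 without replicate 18. The lists that follow are therefore described by the share of members with a fold above 0, which was 55.3% of all features with all horns and 50.6% without replicate 18, the rest, 44.7% and 49.4%, being below 0.

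**Figure D1:**
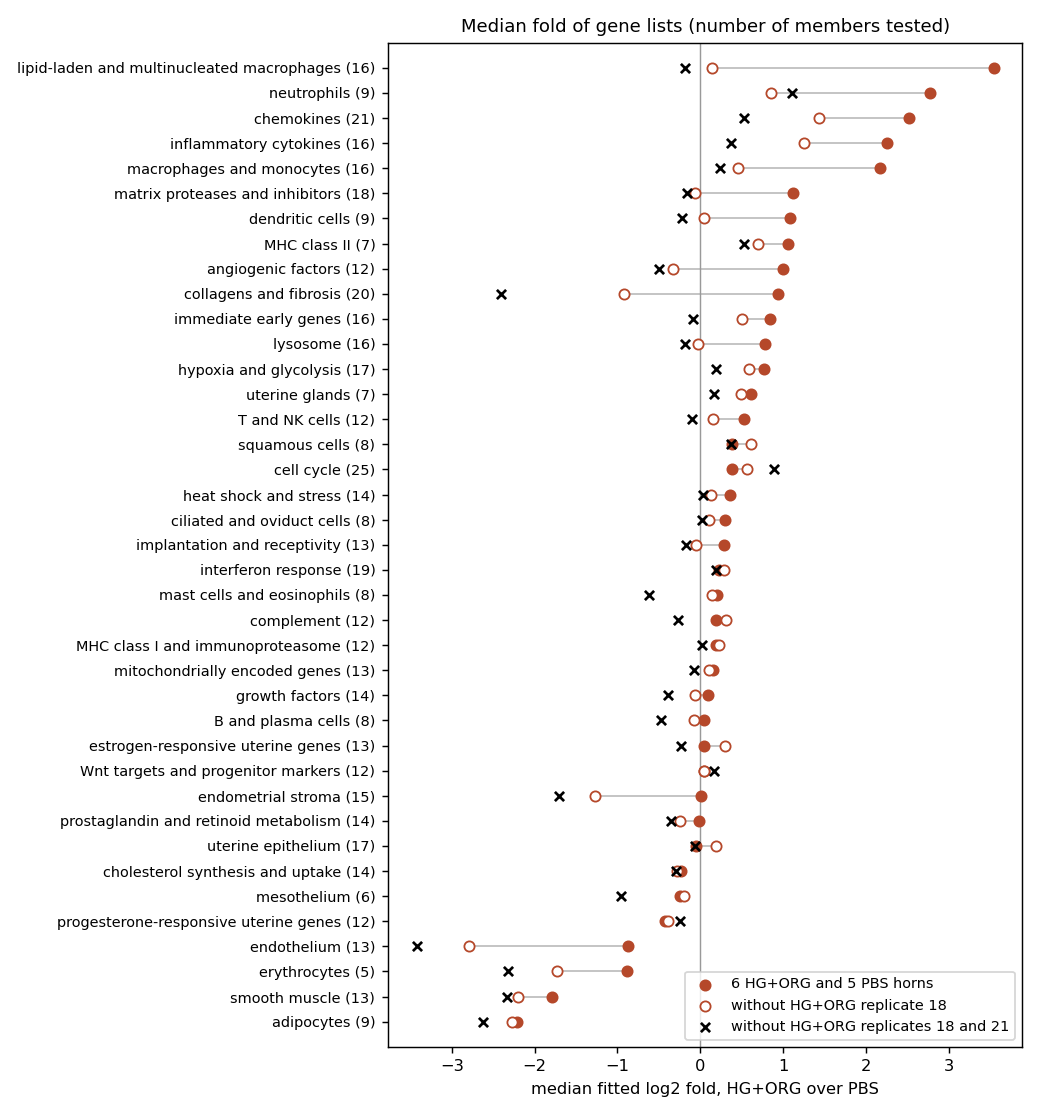
Median fitted log2 fold of each gene list with at least 5 members tested, HG+ORG over PBS (horizontal axis), with the number of members tested in brackets. Filled circles hold all 11 horns, open circles leave out HG+ORG replicate 18 and crosses leave out replicates 18 and 21. The macrophage and inflammatory lists at the top move toward 0 without replicate 18, while endothelium moves to -2.80.

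Markers of macrophages and monocytes were higher in HG+ORG horns for 15 of 16 members, with a median log2 fold of 2.17, and 10 members had an unadjusted p under 0.05. Without replicate 18 the fold of 15 members was still above 0, but the median was 0.46 and no member reached that level. The list score, the mean log2 CPM of the members, was 7.84 in replicate 18 and 2.81, 4.15 and 5.41 in the other HG+ORG horns, against 5.00, 1.28, 2.80, 3.79 and 4.24 in PBS horns. Replicate 18 was the highest of the 11 horns for 14 of the 16 genes, and PBS replicate 8 was the lowest for 15. In bulk tissue, more cells of a type and more RNA per cell cannot be told apart.

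Adgre1, which encodes the macrophage surface protein F4/80, stood at 7.43 in replicate 18 and 2.59, 3.94 and 4.83 in the other HG+ORG horns, against 4.78, 0.38, 1.75, 4.06 and 3.60 in PBS horns. The groups overlapped, and the log2 fold was 1.79 ± 0.82 (SE; adjusted p = 0.809), against 0.37 ± 0.66 without replicate 18. Lyz2, the lysozyme of myeloid cells, stood at 13.89 and 6.02, 7.35 and 9.73, against 8.37, 4.93, 5.13, 6.73 and 8.04 in PBS horns. Replicate 18 was more than 4 log2 units above every other horn, and the fold was 4.19 ± 1.26 with it and 1.04 ± 0.76 without it. The complement genes C1qa, C1qb and C1qc, made by resident macrophages, had folds of 2.19 ± 0.84, 2.88 ± 0.94 and 2.57 ± 0.90 with all horns and of 0.76 ± 0.66, 0.95 ± 0.66 and 0.74 ± 0.64 without replicate 18. Cd68, a lysosomal glycoprotein of macrophages, kept the largest fold of the list without replicate 18 apart from the integrin subunit Itgam, at 1.15 ± 0.83, against 1.58 ± 1.15 for Itgam.

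Genes of lipid-laden and multinucleated macrophages set replicate 18 apart further. All 16 members tested had a fold above 0 with all horns, with a median of 3.54, and 10 of 16 without replicate 18, with a median of 0.14. Replicate 18 was the highest horn for 15 of the 16. Gpnmb, a membrane glycoprotein of lysosome-rich macrophages, stood at 13.18 in replicate 18 and 2.07, 4.53 and 7.09 in the other HG+ORG horns, against 6.21, 0.45, 1.61, 1.40 and 7.12 in PBS horns. Ctsk, a collagen-degrading cathepsin best known from osteoclasts, stood at 11.66 and 0.35, 1.34 and 3.64, against 3.64, -0.67, -0.84, 4.51 and 4.61 in PBS horns, so that its fold was 5.50 ± 1.85 with replicate 18 and -1.47 ± 0.89 without it. The receptor Trem2 had folds of 4.20 ± 1.30 and 0.55 ± 0.74 in the same order, and the secreted phosphoprotein Spp1 3.32 ± 1.25 and 0.10 ± 0.81. Arg1, which turns arginine into ornithine and marks some wound macrophages, was the exception. It was highest in HG+ORG replicate 21, at 11.81, and stood at 9.73 in replicate 18, against 5.48, 0.93, 5.67, 5.56 and 7.93 in PBS horns, and its fold was 3.34 ± 1.72 and 3.34 ± 1.79, and 1.55 without replicate 21. Lysosomal genes followed the macrophage lists, with 14 of 16 members above 0 and a median of 0.79, and 8 of 16 and -0.03 without replicate 18. Matrix proteases and their inhibitors had 13 of 18 members above 0 with a median of 1.12, and 7 of 18 with -0.06 without replicate 18. The macrophage elastase Mmp12 reached 12.62 in replicate 18, against 5.53, -1.47, -2.07, 0.61 and 6.21 in PBS horns, and its fold was 5.44 ± 2.20 with and -0.52 ± 1.45 without that horn.

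Chemokines are the secreted proteins that draw leukocytes into tissue. Of 21 members tested, 18 had a fold above 0 and 11 had an unadjusted p under 0.05 in that direction, with a median of 2.52. Without replicate 18 it was 18 of 21 and 3, with a median of 1.44, and without replicates 18 and 21 it was 16 of 21, with a median of 0.53. The list score was 6.86 in replicate 18 and 0.82, 2.80 and 4.71 in the other HG+ORG horns, against 3.18, -0.65, 0.52, 2.19 and 2.59 in PBS horns. The groups overlapped, with HG+ORG replicates 18, 21 and 23 above every PBS horn, the last by under 0.1, and PBS replicates 8 and 9 below every HG+ORG horn.

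The 3 neutrophil chemokines whose promoters are printed above differed in which horn was highest. Cxcl1 stood at 5.23 in replicate 18 and 0.84, 3.27 and 6.73 in the other HG+ORG horns, against 2.36, -2.15, -0.18, -0.77 and 2.67 in PBS horns. Its highest horn was HG+ORG replicate 21, and the fold was 3.49 ± 1.30 with all horns, 3.40 ± 1.35 without replicate 18 and 1.37 without replicates 18 and 21. Cxcl2 stood at 12.45 and 0.07, 4.48 and 7.24, against 5.42, -1.77, 1.12, 1.58 and 4.34 in PBS horns. Cxcl3 stood at 10.75 and -1.76, 0.27 and 2.84, against 1.75, -2.15, -1.65, -2.04 and 0.00 in PBS horns. For both, replicate 18 was more than 5 log2 units above every other horn, and the folds were 6.18 ± 1.95 and 8.31 ± 2.32 with it and 2.05 ± 1.30 and 1.37 ± 1.27 without it. The adjusted p of all 3 lay between 0.709 and 0.716 with all horns.

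Ccl4, which attracts monocytes and T cells, stood at 9.25 in replicate 18 and -0.73, 1.84 and 3.11 in the other HG+ORG horns, against 1.70, -2.66, -1.32, 0.35 and 0.00 in PBS horns. Ccl3, its neighbour in the same family, stood at 10.36 and -0.73, 1.87 and 3.89, against 1.95, -2.66, -1.06, 0.35 and 0.94 in PBS horns. The groups overlapped for both genes, and the folds were 6.60 ± 1.65 and 7.30 ± 1.95 with all horns (adjusted p = 0.709 each) and 1.99 ± 0.87 and 1.89 ± 1.11 without replicate 18. Ccl2, the main attractant of monocytes, stood at 7.57 and -0.15, 1.00 and 4.49, against 1.16, -2.66, -1.06, 0.84 and 1.76 in PBS horns. Its fold was 4.67 ± 1.31, and 2.21 ± 0.96 without replicate 18. Of the chemokines with a fold at or below 0, Cxcl12, a stromal chemokine, stood at -0.24 ± 0.99 and -1.77 ± 0.93 with and without replicate 18, and it was high in PBS replicates 7 and 10, at 6.90 and 5.84.

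**Figure D2:**
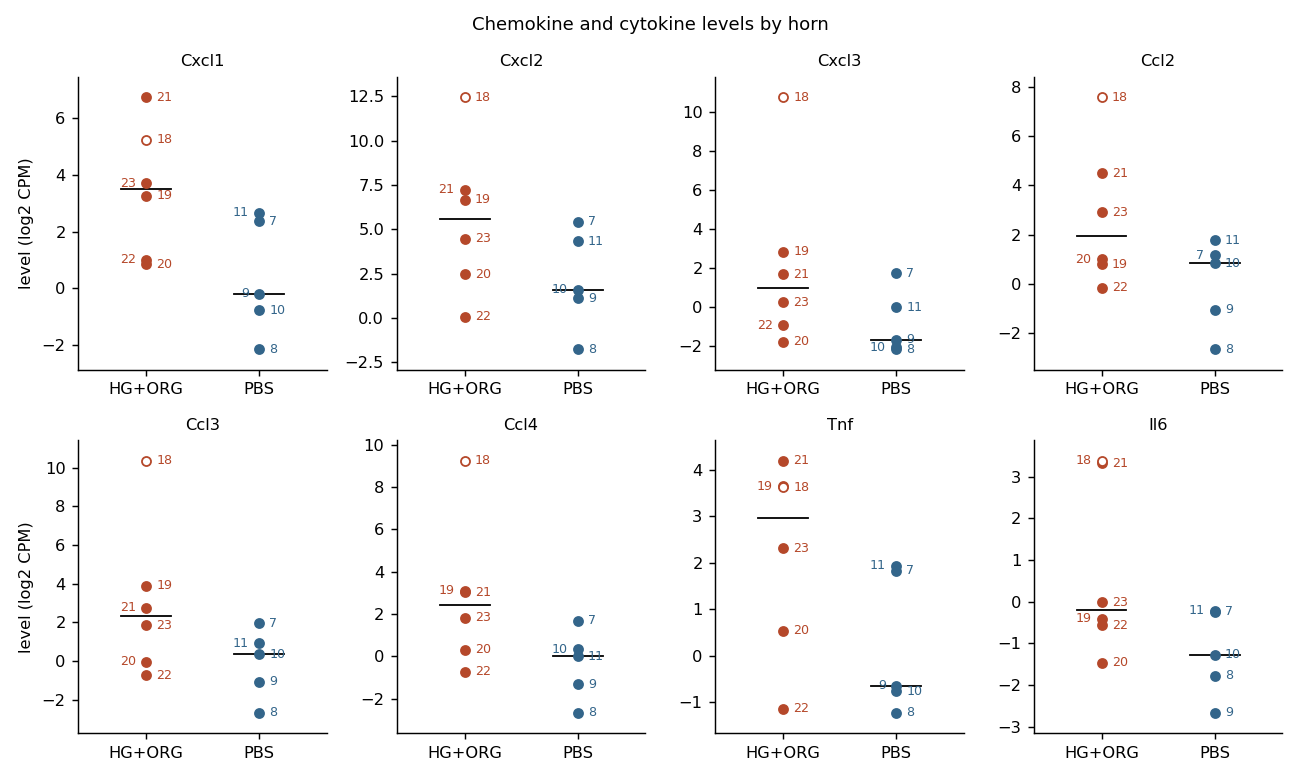
Levels of 6 chemokine and 2 cytokine genes by horn (vertical axes, log2 CPM), HG+ORG left and PBS right. Each point is 1 horn with its replicate number, the open circle is HG+ORG replicate 18 and the bars are group medians. Replicate 18 stands alone at the top for Cxcl2, Cxcl3, Ccl3 and Ccl4, whereas for Cxcl1 and Tnf replicate 21 is highest.

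Inflammatory cytokines had 15 of 16 members above 0 with all horns, 9 of them with an unadjusted p under 0.05 and a median fold of 2.26. Without replicate 18 it was 14 of 16, 5 and 1.26, and without replicates 18 and 21 the median was 0.37. Tnf, the tumour necrosis factor, stood at 3.62 in replicate 18 and -1.14, 2.31 and 4.19 in the other HG+ORG horns, against 1.83, -1.23, -0.64, -0.77 and 1.93 in PBS horns. Replicate 21 was highest and replicate 22 lowest of the HG+ORG horns, the groups overlapped, and the fold was 2.29 ± 0.93 with and 2.14 ± 0.97 without replicate 18 (adjusted p = 0.759 with all horns). Il1b, the interleukin released by activated macrophages and neutrophils, stood at 10.48 and -0.15, 3.01 and 6.95, against 5.76, -1.77, 1.17, 1.03 and 4.49 in PBS horns, with folds of 4.03 ± 1.77 and 0.90 ± 1.41. Il6 had folds of 3.29 ± 1.22 and 2.66 ± 1.20, and it was at 3.38 and 3.31 in HG+ORG replicates 18 and 21 and below 0.1 in every other horn. Nos2, the inducible nitric oxide synthase, had folds of 3.49 ± 1.38 and 3.37 ± 1.42, and was highest in replicate 21 at 5.14, without which the fold was 2.17. Tgfb1, which drives fibroblasts to make matrix, stood at 8.09 in replicate 18 and 2.69, 4.24 and 4.53 in the other HG+ORG horns, against 4.76, 2.51, 2.59, 3.87 and 4.25 in PBS horns. Its fold of 2.03 ± 0.75 with all horns stood at 0.19 ± 0.43 without replicate 18.

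Other immune lists split by whether they moved with replicate 18. Of 16 neutrophil genes in the list 9 could be tested, among them Ltf, which is also a secretory gene of the epithelium. The granule genes Mpo, Elane, Ngp and Camp were not among the genes counted. Of the 9 tested, 7 had a fold above 0 and the median was 2.78, and without replicate 18 it was 7 and 0.85. S100a8, a subunit of the calprotectin complex of neutrophils, stood at 10.47 in replicate 18 and -0.56, 1.86 and 5.31 in the other HG+ORG horns, against 4.23, -1.77, 0.75, 1.20 and 3.61 in PBS horns. HG+ORG replicate 19 was the next highest at 5.31, and the fold was 5.15 ± 1.89 and 0.54 ± 1.32 without replicate 18. MHC class II genes, which present antigen to helper T cells, were above 0 for 7 of 7 members with and without replicate 18, with medians of 1.06 and 0.70, and 0.53 without replicates 18 and 21. H2-Eb1, a class II beta chain, stood at 8.32 and 4.02, 6.45 and 7.89, against 6.80, 2.24, 4.31, 5.51 and 6.05 in PBS horns. PBS replicate 8 was lowest for 6 of the 7 class II genes, and the fold of H2-Eb1 was 1.56 ± 0.71 and 1.16 ± 0.70. Interferon-response genes were above 0 for 16 of 19 members and for 19 of 19 without replicate 18, with medians of only 0.23 and 0.28. Replicate 18 was the lowest of the 11 horns for 12 of them and replicate 21 the highest for 10, and without replicate 21 it was 10 of 19 with a median of 0.00. Dendritic cell genes had 8 of 9 above 0 with a median of 1.08, and 5 of 9 with 0.04 without replicate 18. T and NK cell genes had 9 of 12 above 0 with a median of 0.53, and 7 of 12 with 0.15. Their defining T cell marker Cd3g, a subunit of the T cell receptor complex, stood at 3.06 in replicate 18 and -1.13, -0.03 and 1.37 in the other HG+ORG horns, against 0.14, -2.15, -2.07, -0.10 and -0.21 in PBS horns.

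Genes of hypoxia and glycolysis had a fold above 0 for 16 of 17 members both with and without replicate 18, with medians of 0.77 and 0.59. Here replicate 21 was the horn on top, and was the highest of the 11 for 10 of the 17 genes. Without replicates 18 and 21, 14 of 17 remained above 0 with a median of 0.19. The list score was 6.70 in replicate 18, 7.25 in replicate 21 and 5.18 to 6.20 in the other 4 HG+ORG horns, against 5.44, 5.01, 5.34, 5.09 and 6.02 in PBS horns. In SHAM horns it ran from 5.46 to 7.60. Ankrd37, a target of the hypoxia-inducible factor whose promoter is printed above, stood at 3.18 in replicate 18 and 0.84, 1.64 and 6.59 in the other HG+ORG horns, against 1.12, 0.65, 1.53, 1.36 and 2.55 in PBS horns. The highest value belonged to replicate 21, and the fold was 2.80 ± 1.24 with all horns, 2.97 ± 1.30 without replicate 18 and 0.76 without replicate 21. Egln3, an oxygen-sensing prolyl hydroxylase, was also highest in replicate 21, at 10.21, and its fold of 1.85 ± 1.15 stood at 0.40 without that horn. Pfkp, the platelet form of phosphofructokinase, stood at 7.48 and 3.95, 4.18 and 6.24, against 4.60, 3.67, 3.73, 3.73 and 4.53 in PBS horns, with a fold of 1.70 ± 0.56 and of 0.88 ± 0.45 without replicate 18. Ldha, lactate dehydrogenase, stood at 10.51 and 9.10, 9.66 and 10.25, against 9.16, 9.27, 9.52, 9.37 and 9.74 in PBS horns, with folds of 0.46 ± 0.28 and 0.30 ± 0.29. Vegfa, the endothelial growth factor and another target of hypoxia, stood at 8.17 and 6.60, 7.39 and 9.40, against 6.75, 8.07, 6.30, 5.53 and 6.87 in PBS horns. Its fold was 1.08 ± 0.64 and 1.07 ± 0.68 (adjusted p = 0.887 with all horns), against 0.55 without replicate 21, its highest horn, and 0.29 without both. Angiogenic factors as a list had 10 of 12 members above 0 with a median of 1.00, and 3 of 12 with -0.33 without replicate 18. Immediate early genes, which respond within minutes to growth signals or tissue handling, had 15 of 16 above 0 with a median of 0.85, 14 of 16 with 0.50 without replicate 18, and 4 of 16 with -0.09 without replicates 18 and 21.

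**Figure D3:**
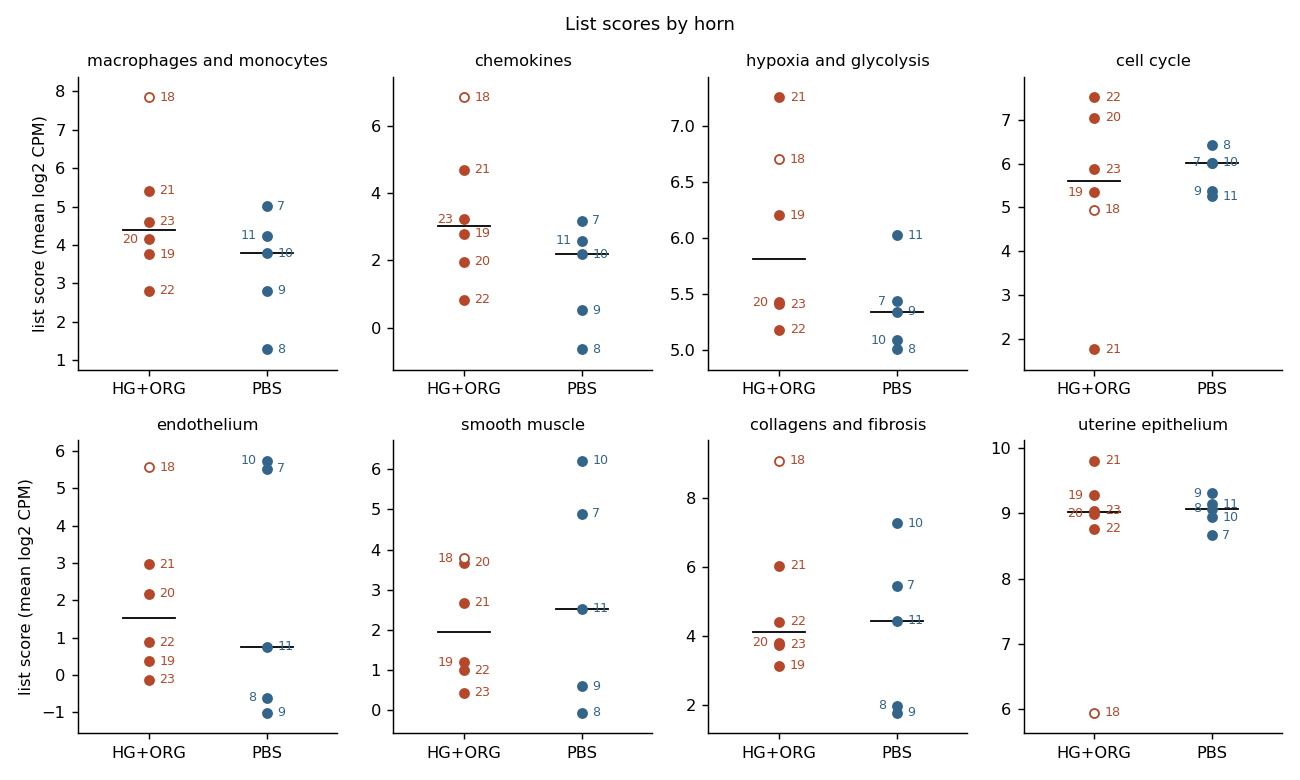
List scores by horn (vertical axes, mean log2 CPM of the tested members), HG+ORG left and PBS right, with the replicate number at each point, an open circle for HG+ORG replicate 18 and bars for group medians. PBS replicates 7 and 10 lie above the other PBS horns in endothelium and smooth muscle, and replicate 18 lies alone at the bottom of uterine epithelium.

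Blood vessel, muscle and stromal genes varied widely among the PBS horns. All 13 endothelial genes had a fold below 0, with a median of -0.87 with all horns and -2.80 without replicate 18. In the second fit 12 of 13 had an unadjusted p under 0.05, against 1.75% of all features lower at that level. These genes moved together across horns, so they do not count as separate results. The list score was 5.57 in replicate 18 and -0.13, 0.87 and 2.96 in the other HG+ORG horns, against 5.53, -0.61, -1.02, 5.74 and 0.75 in PBS horns. PBS replicates 7 and 10 exceeded the other 3 PBS horns and HG+ORG replicates 19 to 23 in 13 of 13 genes, while in the list score PBS replicates 8 and 9 lay below every HG+ORG horn. Pecam1, the adhesion protein CD31 of endothelium, stood at 7.07 and 0.98, 1.71 and 4.33, against 7.22, -0.39, -0.18, 6.83 and 1.88 in PBS horns. Its fold was -0.87 ± 1.15 with all horns and -2.68 ± 1.14 without replicate 18, with an adjusted p of 1.00 in the second. Over the single horns left out, the median fold of the endothelial list ran from -2.80 to -0.22, the second without PBS replicate 10.

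Smooth muscle genes had a fold below 0 for 13 of 13 members with and without replicate 18, with medians of -1.79 and -2.21, and -0.80 without PBS replicate 10. The same horns carried them, since PBS replicates 7 and 10 exceeded the 8 horns other than HG+ORG replicate 18 in 12 of 13 genes. Myh11, the smooth muscle myosin heavy chain, stood at 3.69 in replicate 18 and -0.79, 1.55 and 5.54 in the other HG+ORG horns, against 6.40, -0.67, 0.17, 8.06 and 2.99 in PBS horns. Its fold was -2.43 ± 1.27, and -2.43 ± 1.38 without replicate 18. With the smooth muscle score as a covariate, the median fold of the endothelial list was 0.91, of the opposite sign. That fit kept replicate 18. The covariate was high in PBS replicates 7 and 10, as the endothelial genes were, so it cannot separate muscle from vessels. The amount of myometrium left on the tissue is not in the sources used here, and its part in these folds was not tested.

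The fold of collagen and fibrosis genes turned with a single horn. With all horns 18 of 20 had a fold above 0 and the median was 0.94, and without replicate 18 it was 2 of 20 and -0.92. Replicate 18 was the highest horn for 18 of the 20. Col1a1, a chain of the main fibrillar collagen, stood at 11.86 in replicate 18 and 3.97, 6.02 and 8.54 in the other HG+ORG horns, against 6.78, 1.48, 0.89, 10.06 and 5.97 in PBS horns. The values in PBS horns spanned more than 9 log2 units, and the fold was 1.52 ± 1.42 with all horns and -1.15 ± 1.25 without replicate 18 (adjusted p = 0.94 and 1.00). Col3a1 had folds of 1.53 ± 1.37 and -0.79 ± 1.22 in the same order. Stromal genes were split at 8 of 15 above 0 with a median of 0.01, and 1 of 15 with -1.27 without replicate 18. Igf1, a growth factor of the stroma, stood at 8.24 and 1.99, 3.54 and 4.86, against 5.68, 2.32, 0.82, 6.57 and 3.92 in PBS horns, with folds of 0.87 ± 1.03 and -1.35 ± 0.84. Hoxa10, a homeobox gene of uterine stroma needed for implantation in mice, stood at 1.76 and 1.26, 2.02 and 4.69, against 5.21, 1.08, 0.53, 5.58 and 2.52 in PBS horns, with folds of -1.22 ± 0.99 and -1.09 ± 1.05. Nr2f2, a nuclear receptor of the stroma that acts downstream of progesterone, was the 1 member of any list whose groups did not overlap. That is 1 of 497 distinct list members tested, against 19 of all 17708 features, 0.107%. Nr2f2 stood at 5.78 in replicate 18 and 6.24, 6.54 and 6.68 in the other HG+ORG horns, against 7.07, 6.91, 6.92, 6.83 and 6.79 in PBS horns. Every HG+ORG horn was below every PBS horn, and the fold was -0.49 ± 0.19 and -0.39 ± 0.17 (adjusted p = 0.727 and 1.00).

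Epithelial genes are the check of the labelled tissue, and their scores overlapped between the groups apart from replicate 18. The epithelial score was 5.95 in replicate 18 and 8.76, 9.04 and 9.81 in the other HG+ORG horns, against 8.66, 9.07, 9.31, 8.94 and 9.14 in PBS horns. Replicate 18 was the lowest of the 11 horns for 17 of 17 epithelial genes. Without it 13 of 17 had a fold above 0, with a median of 0.18, and with it 7 of 17, with a median of -0.05. Replicate 21 was the highest horn for 12 of the 17, and without it 2 of 17 had a fold above 0, with a median of -0.35, and without both 5 of 17, with -0.07. Epcam, an epithelial adhesion protein, stood at 7.13 in replicate 18 and 9.75, 10.49 and 11.05 in the other HG+ORG horns, against 10.04, 9.91, 10.52, 10.32 and 10.56 in PBS horns. Foxa2, the transcription factor of uterine glands, stood at 3.24 and 2.42, 4.24 and 4.69, against 4.09, 3.89, 1.22, 3.25 and 1.18 in PBS horns. The groups overlapped, with a fold of 0.69 ± 0.58 and 0.79 ± 0.60. Lif, the gland-derived cytokine that implantation requires in mice, stood at 3.53 and 2.82, 3.72 and 8.02, against 3.41, 2.74, 2.82, 3.99 and 4.32 in PBS horns. Replicates 21 and 19 were the only HG+ORG horns above every PBS horn, and the fold was 2.23 ± 1.07 with all horns, 2.46 ± 1.10 without replicate 18 and 0.37 without replicate 21. In SHAM horns Lif ran from 3.37 to 7.23.

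Steroid receptor and response genes varied between horns of both groups. Esr1, the estrogen receptor alpha gene, stood at 3.82 in replicate 18 and 8.07, 8.18 and 8.55 in the other HG+ORG horns, against 8.21, 8.70, 8.44, 8.75 and 8.36 in PBS horns. Its fold was -0.52 ± 0.41 with replicate 18 and -0.27 ± 0.16 without it. Pgr, the progesterone receptor gene, stood at 2.58 and 5.31, 8.16 and 9.49, against 8.35, 10.11, 8.90, 7.79 and 8.29 in PBS horns, with folds of -0.65 ± 0.76 and -0.39 ± 0.64. Of 12 progesterone-responsive genes 3 had a fold above 0, with a median of -0.43, and 2 of 12 without replicate 18, with -0.39. Estrogen-responsive genes had 7 of 13 above 0 with a median of 0.04, and 11 of 13 with 0.30 without replicate 18. The direction rested on replicate 21, the highest horn for 8 of the 13, since without it alone it was 3 of 13 with -0.51, and without both 4 of 13 with -0.23. Genes of implantation and receptivity had 7 of 13 above 0 with a median of 0.29, and 6 of 13 with -0.05. Proliferation set HG+ORG replicates 21 and 22 at opposite ends. Mki67, a nuclear protein of dividing cells, stood at 5.97 in replicate 18 and 2.00, 7.05 and 9.00 in the other HG+ORG horns, against 7.04, 8.22, 6.25, 7.64 and 6.28 in PBS horns. The low value was replicate 21, which was the lowest horn for 25 of 25 cell cycle genes, while replicate 22 was the highest for 25 of 25. The cell cycle score was 1.77 in replicate 21 and ran from 1.35 to 7.26 in SHAM horns. The fold of Mki67 was 0.21 ± 0.92 and 0.38 ± 0.95. The cell cycle list had 21 of 25 members above 0 with a median of 0.38, 24 of 25 with 0.56 without replicate 18, and 25 of 25 with 0.89 without replicates 18 and 21. Without replicate 22 the median was -0.14, of the opposite sign, and in limma-voom it was -0.27. Cholesterol synthesis genes were below 0 for 13 of 14 members with a median of -0.24, and for 12 of 14 with -0.28 without replicate 18, and PBS replicate 10 was the highest horn for 11 of them.

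The higher genes with the smallest p over all horns were Ctrl, Slc25a28, Ccl4, Cela1, Rnase1, Ccl3, Ctla4 and Cd80, and most were highest in replicate 18. Ctrl and Cela1, digestive proteases of the exocrine pancreas, stood at 9.39 and 10.80 in replicate 18. In the other HG+ORG horns they stood at 0.40, 1.08 and 1.37 and 0.26, 2.22 and 2.52, against -1.29, 0.22, 0.27, 0.53 and 1.47 and 2.60, -0.52, 1.72, 1.70 and 2.13 in PBS horns. Their folds were 6.50 ± 1.60 and 6.46 ± 1.65 with all horns and 0.55 ± 0.42 and 0.17 ± 0.46 without replicate 18. The pancreatic ribonuclease gene Rnase1 was at 8.53 in replicate 18, and of 11 acinar genes in the list 2 could be tested, and the part of pancreatic tissue in that library was not tested. Cd80, a costimulatory ligand of antigen-presenting cells, had folds of 4.53 ± 1.25 and 0.95 ± 0.64. Ctla4, the inhibitory receptor of T cells that binds Cd80, stood at 1.65 in replicate 18 and between -2.66 and 2.61 in the other HG+ORG horns, against -1.82, -2.66, -2.66, -1.27 and -2.66 in PBS horns, and it was highest in replicate 21. It was too low to be tested without replicate 18. Slc25a28, a mitochondrial iron importer, was the gene of this group that did not depend on that horn. It stood at 5.94 in replicate 18 and 5.02, 5.58 and 5.95 in the other HG+ORG horns, against 5.25, 5.03, 4.69, 5.01 and 5.12 in PBS horns. HG+ORG replicate 20 alone lay within the PBS range among the HG+ORG horns, and the fold was 0.59 ± 0.15 with and 0.52 ± 0.15 without replicate 18 (adjusted p = 0.709 and 1.00).

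The lower genes with the smallest p over all horns were Tspan31, Bnc2, Tmem106b, Kank2, Sytl5, Nr3c2, Utrn and Arhgap20, and their adjusted p was 0.709 each. Their folds without replicate 18 were close to those with it, and some moved more when a PBS horn was left out. Bnc2, a zinc finger gene of fibroblasts, stood at 0.60 in replicate 18 and -0.79, -0.25 and 0.08 in the other HG+ORG horns, against 1.42, 0.05, 0.45, 2.54 and 0.77 in PBS horns, with folds of -1.55 ± 0.45 and -1.76 ± 0.48, and -0.94 without PBS replicate 10. Nr3c2, the mineralocorticoid receptor gene, stood at 0.60 and -0.04, 0.47 and 0.93, against 2.11, 0.83, 1.79, 1.58 and 1.61 in PBS horns. Only PBS replicate 8 lay within the HG+ORG range, and the fold was -1.19 ± 0.37 and -1.21 ± 0.39. Tmem106b, a lysosomal membrane protein gene, stood at 6.67 and 6.69, 6.99 and 7.11, against 6.94, 8.48, 7.65, 7.40 and 7.25 in PBS horns. PBS replicate 8 was highest, and the fold was -0.73 ± 0.22 and -0.68 ± 0.22, and -0.41 without that horn. Utrn, the gene of the dystrophin relative utrophin, had folds of -0.63 ± 0.20 and -0.58 ± 0.20, and Kank2, an adaptor between talin and the cytoskeleton, -0.58 ± 0.18 and -0.60 ± 0.19. Tspan31 had folds of -0.49 ± 0.14 and -0.45 ± 0.14, Sytl5 -1.78 ± 0.55 and -1.71 ± 0.60, and Arhgap20 -2.60 ± 0.84 and -2.54 ± 0.91. Arhgap20 was highest in PBS replicates 10 and 7, at 3.16 and 1.38, and its fold was -1.10 without PBS replicate 10.

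Without replicate 18, the higher genes with the smallest p were Crybg2, Unk, Slc25a28, Hnrnph3, Top3a, Adm2, Erich2 and Tomm34. Unk and Hnrnph3 encode RNA-binding proteins, Top3a a topoisomerase and Tomm34 a chaperone of mitochondrial import. Hnrnph3 stood at 6.73, 7.05 and 7.42 in these 5 HG+ORG horns and at 5.34 in replicate 18, against 6.77, 6.54, 6.53, 6.37 and 6.61 in PBS horns. Of these 5, replicate 20 alone lay within the PBS range and replicate 18 lay below it, and the fold was 0.49 ± 0.15 without replicate 18 and 0.32 ± 0.23 with it. Crybg2 stood at 1.81, 2.33 and 2.90 and at -0.61 in replicate 18, against 0.94, 1.03, 1.27, 0.91 and 1.50 in PBS horns, with folds of 1.40 ± 0.37 without that horn and 1.17 ± 0.47 with it. Unk was above every PBS horn in these 5 horns and below them in replicate 18, with folds of 0.41 ± 0.11 and 0.30 ± 0.15, Top3a 0.46 ± 0.14 and 0.33 ± 0.18, Tomm34 0.36 ± 0.11 and 0.33 ± 0.11, and Erich2 1.76 ± 0.54 and 1.55 ± 0.58, in the same order. The lower genes by the same rule were Slc16a9, Tmem204, Bnc2, Gpm6b, Camsap2, Plxna2, Slc15a4 and Tspan31, with folds without replicate 18 of -2.51 ± 0.68, -2.16 ± 0.59, -1.76 ± 0.48, -0.73 ± 0.21, -0.43 ± 0.13, -0.91 ± 0.28, -0.44 ± 0.14 and -0.45 ± 0.14 in that order. Camsap2, which caps microtubule minus ends, stood at 4.57, 4.77 and 5.27 in the 5 HG+ORG horns and at 5.11 in replicate 18, against 5.35, 5.19, 5.35, 5.38 and 5.31 in PBS horns, and of these 5 replicate 20 alone lay within the PBS range.

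In 19 features, 0.107% of those tested, no HG+ORG horn overlapped a PBS horn, with 9 above (0.0508%) and 10 below (0.0565%). Without replicate 18 it was 52 features, 0.294%, with 30 above (0.169%) and 22 below (0.124%). Random labels would separate a gene in a fraction of 0.00433 of the splits into 6 and 5 horns, and of 0.00794 into 5 and 5. Both shares seen lay below these fractions. The genes named from the 19 were picked for this separation, so their values are a description. Adm2, a peptide hormone of the adrenomedullin family, stood at 1.33 in replicate 18 and -0.28, 0.08 and 3.47 in the other HG+ORG horns, against -1.08, -1.77, -1.32, -2.66 and -0.62 in PBS horns. Its fold of 3.53 ± 1.04 was the largest of the 19, and 3.60 ± 1.09 without replicate 18. Replicate 21 held the level of 3.47, and without it the fold was 2.41, and 2.12 without both. The level in PBS horns ran from -2.66, the floor, to -0.62, and in SHAM horns from -1.15 to 2.96. The related Adm did not separate the groups, with a fold of 2.26 ± 1.24, 2.51 ± 1.27 without replicate 18 and -0.64 without replicate 21, its highest horn at 7.19. Stk11, the kinase LKB1 that activates AMPK, stood at 7.23 in replicate 18 and 6.74, 6.81 and 6.96 in the other HG+ORG horns, against 6.62, 6.58, 6.45, 6.66 and 6.54 in PBS horns, and the gap between the groups was under 0.1. Its fold was 0.34 ± 0.11 with all horns and 0.27 ± 0.11 without replicate 18. In the same order the folds were 0.34 ± 0.11 and 0.27 ± 0.09 for Gsk3a, a kinase that phosphorylates glycogen synthase, 0.28 ± 0.11 and 0.27 ± 0.12 for Rnf126, a ubiquitin ligase, and 0.88 ± 0.33 and 0.80 ± 0.34 for Slc9a5, a sodium and proton exchanger. Lrp6, the coreceptor of Wnt, stood below every PBS horn, at 5.97 and 6.24, 6.34 and 6.35, against 6.43, 6.74, 6.55, 6.53 and 6.43 in PBS horns, with folds of -0.28 ± 0.11 and -0.23 ± 0.10. Also below were Mxd4, a repressor that pairs with Max, with -0.72 ± 0.28 and -0.75 ± 0.29, Prss23, a serine protease, with -0.75 ± 0.31 and -0.70 ± 0.33, and Jmy, an actin-nucleating cofactor of p53, with -0.48 ± 0.18 and -0.39 ± 0.17. None of the 19 had an adjusted p under 0.70 with all horns.

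**Figure D4:**
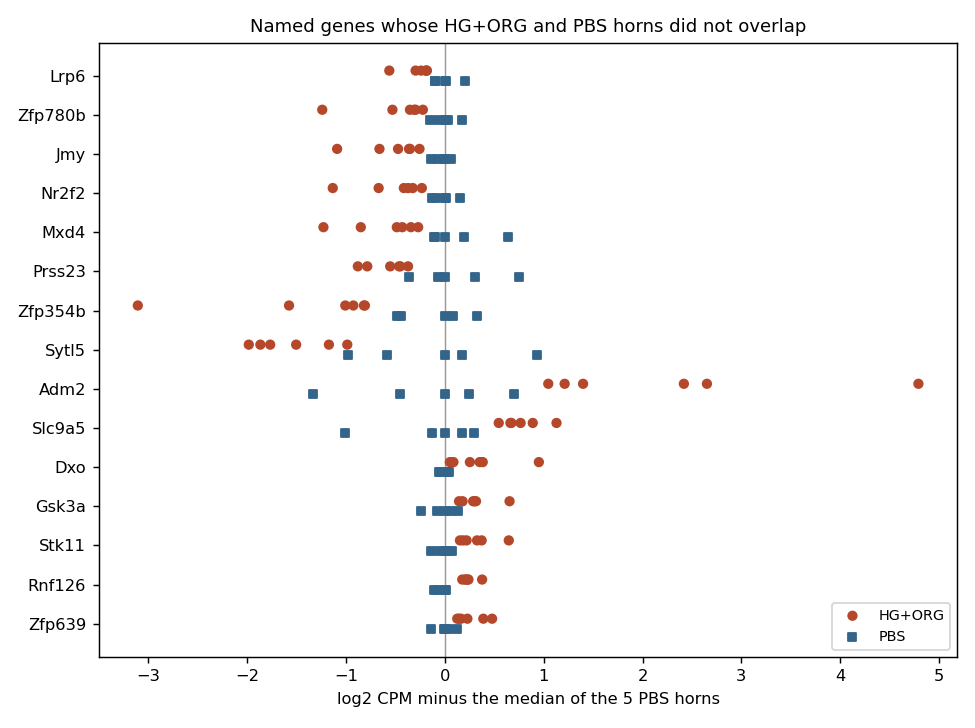
Levels of 15 genes with an established name whose HG+ORG horns (circles) and PBS horns (squares) did not overlap. The horizontal axis is log2 CPM minus the median of the 5 PBS horns, and each point is 1 horn. The gap between the nearest circle and square is narrow for most of them, and Adm2 spans the widest range.

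The HG+ORG horns were also set against the 6 HG horns, a comparison that shares the HG+ORG libraries with the one above. No gene passed in edgeR with all horns (smallest adjusted p = 0.270) or without replicate 18 (0.169). At an unadjusted p under 0.05 lay 9.81% of features with all horns, 918 higher and 819 lower, and 12.0% without replicate 18, 479 higher and 1638 lower. Other tools gave 172 genes with DESeq2, 281 with limma and library quality weights, and 0 with limma-voom. Against HG, the median log2 fold was 1.60 for macrophages, 1.45 for chemokines and 3.49 for lipid-laden macrophages, -1.78 for endothelium and -2.89 for smooth muscle. Without replicate 18 the same medians were 0.27, -0.21, 0.33, -3.50 and -3.52, in that order. The endothelial score ran from 2.76 to 5.90 with a median of 5.05 in HG horns, so HG+ORG replicates 18 and 21 and PBS replicates 7 and 10 lay within the range of the HG horns, and the other HG+ORG and PBS horns lay below it.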

How the data were processed

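RNA from the endometrium of 23 uterine horns was sequenced, 1 library per horn, and the 6 HG+ORG and 5 PBS libraries are compared here. Values are whole-number counts per mouse gene, deposited by the authors as 1 table of 18682 features, of which 18341 carry a symbol. Each feature has at least 10 counts in at least 3 libraries. Per the submitters' processing notes, reads were handled with Trimmomatic 0.39, HISAT2 2.2.1 and featureCounts 2.0.3 on build GRCm39. The sources used here give no settings for these tools, strand included, so overlapping and antisense genes cannot be separated. The labels state that 2 samples were discarded.

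The counts were fitted with edgeR 4.0.16 (R 4.3.3), using filterByExpr, which left 17708 features, TMM scaling, all 4 groups in 1 quasi-likelihood model, and Benjamini-Hochberg adjustment over all features. Levels use a prior count of 2. Fits without replicate 18 left out that library before filtering. Fold errors are standard errors (SE) and list scores have none. DESeq2 1.42.0 and limma 3.58.1 were alternatives, and the steps were checked on simulated data. Per-horn levels for the text share the scaling of all 23 libraries.

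The members and gene lists were chosen with earlier results of these data known. Genes were named by rule: the 8 higher and 8 lower with the smallest p in each fit, limited to established symbols averaging 1 CPM or more, the 2 higher and 2 lower members of a list with the smallest p, defining markers, and a constant group such as Col1a1 and Lif. Cxcl2, Cxcl3, Il1b, Il6, Tnf, Arg1, Egln3, Ldha, Mmp12, Gpnmb, Adm and the genes picked for separated groups were named after their values were seen. The labels do not say which horns share a mouse, so samples were not paired.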

Additional observations from a re-analysis of the deposited data

Results flagged for a closer look

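Within the 6 HG+ORG or the 5 PBS horns, a single horn stood far from the rest in 20 of 172 sets of values tested, judged by its gap to the nearest other horn divided by the range of the group (Dixon's test). Chance alone gives about 1 in 20 groups. HG+ORG replicate 18 accounted for 16 of the 20. That horn was known to stand apart, and many of the genes were picked by fits with or without it, so the number is a description and is not set against chance.

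HG+ORG replicate 18 was the highest of its group for the scores of pancreatic acinar genes (gap share 0.8505), ovarian steroidogenic genes (0.7817) and heat shock and stress genes (0.6426), and the lowest for uterine epithelium (0.7299) and squamous cells (0.6976). Among single genes it was the highest for Ctrl (0.8922), Cela1 (0.7853), Cd80 (0.6705), Tmem204 (0.9058), Gpm6b (0.8483) and Tgfb1 (0.6599). It was the lowest for Esr1 (0.8991), Top3a (0.8503), Crybg2 (0.6883), Hnrnph3 (0.6675) and Unk (0.6275).

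Among the PBS horns, replicate 10 was the highest for cholesterol synthesis and uptake (0.7277) and for Plxna2 (0.7312). PBS replicate 7 was the highest for adipocyte genes (0.797), and PBS replicate 8 was the lowest for Cela1 (0.7109).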

How the results depend on the processing

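Between HG+ORG and PBS horns, DESeq2 gave 1 gene with and 1 without replicate 18, and every other alternative gave 0. Features with an unadjusted p under 0.05 ranged from 348 to 1717 over the alternatives with all horns as the base, and from 216 to 1023 over those without replicate 18. Against HG horns, DESeq2 gave 172 genes and limma with library quality weights 281, against 0 in edgeR. The cause was not tested. Features without overlap between groups numbered 29 to 82 with 1 horn left out, which makes overlap less likely by construction, and 19 with all. Of 41 named genes tested, 36 kept the sign of their fold under all alternatives. Most of the 41 were named for a small p in these same data, so a kept sign follows in part from that choice. The genes that changed sign, Col1a1, Col3a1, Igf1, Hoxa10 and Mki67, all belong to the constant group named regardless of its values. With 1 horn left out, Col1a1 ranged from -1.15 without replicate 18 to 4.01 without PBS replicate 10, Col3a1 from -0.79 to 3.59 and Igf1 from -1.35 to 1.75 over the same horns, and Igf1 stood at -0.75 with quality weights. Hoxa10 stood at 0.21 with the smooth muscle covariate. Mki67 stood at -0.65 in limma-voom and ranged from -0.45 without HG+ORG replicate 22 to 0.58 without PBS replicate 8. Of 42 lists, 19 kept the sign of their median. The mean difference in mitochondrial percent, -0.03 with all horns, ranged from -1.33 to 1.10 with 1 horn left out. Results without replicate 21, and without replicates 18 and 21, were added after seeing the data. No paired analysis was possible because the labels do not say which horns share a mouse. The replicate numbers 1 to 23 are unique to each library and do not give the mouse. No detection limit for single genes was measured.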

Other observations

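The secretory gene Ltf of the epithelium split the horns across groups. Ltf, the iron-binding protein lactoferrin and an estrogen-responsive gene, stood at 9.23 log2 CPM in HG+ORG replicate 18, at 9.34 in replicate 22 and at 12.88 to 14.06 in the other HG+ORG horns, against 13.08, 10.59, 13.88, 10.70 and 13.75 in PBS replicates 7 to 11. The low horns were thus HG+ORG replicates 18 and 22 and PBS replicates 8 and 10. The list of estrogen-responsive genes holds Ltf itself, so its score is not independent of Ltf. Among HG+ORG horns the score of that list was also lowest in replicates 18 and 22, at 5.85 and 7.06. Among PBS horns that score was lowest in replicate 8, at 7.06, but highest in replicate 10, at 8.62. HG+ORG replicate 22 was also the horn with the highest level in 25 of 25 cell cycle genes. The stage of the estrous cycle is not given for any horn, and its part in these values was not tested.

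Adipocyte genes had a median fold of -2.22 between HG+ORG and PBS horns, of -2.27 without HG+ORG replicate 18 and of 3.10 without PBS replicate 7. Erythrocyte genes had a fold below 0 for 5 of 5 members tested, with a median of -0.89, and -1.73 without replicate 18. PBS replicate 7 was the highest horn for 5 of 5, and over the single horns left out the median ran from -1.73 to -0.15. The part of attached fat and of blood in these libraries was not tested.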
